A study of Mus musculus with 6 samples.

Results

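The 300 circular RNA (circRNA) probes with the brightest signal in wild-type mouse hippocampus were followed across wild-type and Nrf2 knockout mice. They were chosen by their mean log2 signal over the 3 wild-type arrays, each array scaled to its own 75th percentile, among 14161 circRNA probes without an outlier flag on any array, of 14236 on the array. The study set hippocampi of Nrf2 (+/+) mice against those of Nrf2 (-/-) mice. All 6 mice were males of the ICR strain, 3 to 4 months old, and each gave total RNA from its hippocampus for 1 array. Wild type was represented by 3 mice and the Nrf2 gene knockout by 3 mice. The labels do not state how the allele was made or whether the knockouts were littermates of the controls. RNA was digested with RNase R, copied by random priming, labelled with the dye Cy3 and read on an array made for circRNAs.

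A circRNA forms when a downstream splice donor joins an upstream splice acceptor, which closes 1 or more exons into a ring without free ends. Such rings withstand RNase R, which digests linear RNA from its ends, and they accumulate in neurons, which do not divide and express many circRNAs from genes of synaptic function. Nrf2, encoded by Nfe2l2, is a transcription factor whose targets include many genes of antioxidant defence. The array files name every circRNA by its probe number alone, so the members are given by probe and without host genes, functions or sequences. A probe's brightness depends on its hybridisation as well as on the amount of its circRNA, so the ranking below orders probes by signal. The label of most abundant circRNAs was therefore not tested, and the members are called the brightest probes here. Levels of 1 probe are compared between arrays, not with the level of another probe.

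The arrays fell into 2 scans, with wild types 1 to 3 and knockout 1 in scan 1 and knockouts 2 and 3 in scan 2. Knockout 1 is thus the only knockout array that can be set against wild type within a scan. The 75th percentile of the circRNA signal lay between 229 and 481 intensity units, no spot was saturated, and the brightest member reached 282013 to 388211 intensity units on an array. Of the 22 marker genes listed for the tissue, 3 have a matched mRNA probe among the 50 on the array. These probes read linear RNA left after digestion, so their levels are given as a description and not as a check of the tissue. Apoe, the lipid carrier made by astrocytes, was at 2.31 ± 0.30 in wild type and 2.41 ± 0.01 in knockout (log2 units above the 75th percentile of the array, SD, n = 3 each). Chgb, a granule protein of neurons, was at -0.84 ± 0.20 and -1.47 ± 0.55, and Mbp, the myelin basic protein of oligodendrocytes, at 0.11 ± 0.26 and -0.25 ± 0.74. All spots of these 3 probes were well above background on every array. Olfr1307 and Olfr166, which are not on the marker list, were at 1.55 and 0.91 in wild type, above Chgb and Mbp and below Apoe. Chgb was at -0.92 on knockout 1, within the wild-type range of -0.97 to -0.62, and at -1.46 and -2.02 on knockouts 2 and 3 of scan 2. Mbp was at 0.24 and 0.12 on knockouts 1 and 2 and at -1.10 on knockout 3. The median difference of all 50 mRNA probes was -0.61. Hippocampus holds several cell types, and in such bulk RNA fewer cells of a type and less RNA per cell cannot be told apart. A change in cell types was not tested.

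On the log2 scale relative to the array's 75th percentile, the wild-type mean of the members ran from 4.19 to 9.90, with a median of 5.06. Of the 300 members, 12 had a wild-type mean above 8, 54 lay between 6 and 8, 88 between 5 and 6, and 146 at 5 or below. These levels chose the members and are given as a description. The 3 probes just inside the limit, ASCRP4003526, ASCRP4002252 and ASCRP4004297, had wild-type means of 4.20, 4.19 and 4.19. The first probes outside it, ASCRP4013158, ASCRP4011136 and ASCRP4006924, were at 4.19 each, so the limit cuts through a continuous range. All 300 members were well above background on all 6 arrays, and all of them passed the filter on dim probes. The brightest of 15 probes named as negatives on the array had a wild-type mean of -3.23, far below the dimmest member. Members were spread over the array, 160 of them in its first 96 rows and 150 in its first 41 columns.

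The 10 brightest probes were all among the 300 brightest on each of the 3 knockout arrays, which did not choose them. They did not all keep their rank. On knockout 2, ASCRP4004672, ranked 7 in wild type, was at 6.87, below ASCRP4005038, ranked 16, at 7.52. ASCRP4006710, the brightest, was at 9.68, 9.75 and 10.27 on wild types 1 to 3 and at 9.55, 9.66 and 10.02 on knockouts 1 to 3, so that the genotypes overlapped. ASCRP4006342 was at 9.50, 9.60 and 9.86 in wild type and 9.25, 9.28 and 9.64 in knockout, with overlap again. ASCRP4011502 was at 9.38, 9.38 and 9.95 in wild type and 9.15, 9.02 and 9.02 in knockout, with every knockout array below every wild-type array. ASCRP4004008 had 9.34, 9.41 and 9.76 against 9.11, 9.41 and 9.82, a knockout minus wild-type difference of -0.06 (SE 0.228). Wild type 3 was the highest wild-type array for all 4 of these probes.

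Of the other six, ASCRP4005609 and ASCRP4004672 stood out by lower knockout values. ASCRP4005609 was at 8.63, 8.56 and 8.90 in wild type and at 8.16, 7.90 and 7.81 in knockout, a difference of -0.74 (SE 0.181, limma adjusted p = 0.0729). ASCRP4004672 was at 8.50, 8.39 and 8.55 in wild type, at 8.11 on knockout 1, and lower again on knockouts 2 and 3 at 6.87 and 6.84. Its difference was -1.20 (SE 0.337, limma adjusted p = 0.0847), and it was -0.37 when scan was a block, a fit that rests on knockout 1 alone. The groups did not overlap for either probe, and neither passed an adjusted p of 0.05. After quantile normalization, which gives every array the same distribution, the differences were -0.29 and -0.61.

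ASCRP4012684, ASCRP4013042, ASCRP4010888 and ASCRP4007626 had wild-type means of 8.64, 8.36, 8.32 and 8.19 (SD 0.24 to 0.30, n = 3) and knockout means of 8.40, 8.19, 8.26 and 8.07 (SD 0.13 to 0.32, n = 3). Their genotypes overlapped, and the differences of -0.24, -0.18, -0.06 and -0.12 were smaller than the SD within a genotype. All 4 differences were above 0 after quantile normalization, at 0.07, 0.31, 0.48 and 0.54, so no direction is given for them.

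**Figure D1:**
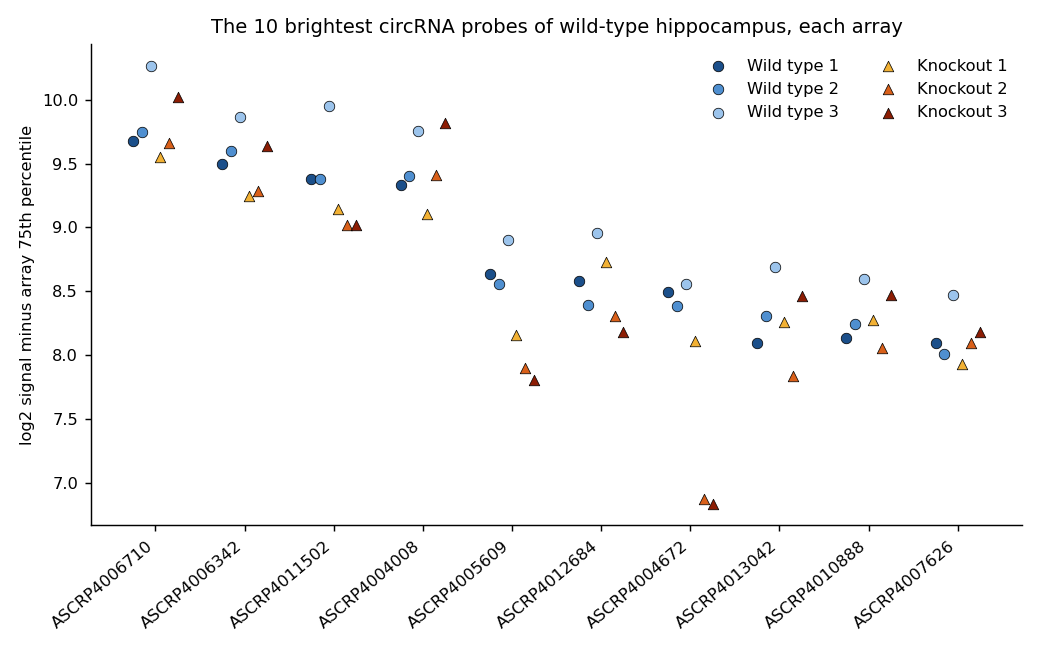
Log2 signal minus the array's 75th percentile (vertical axis) of the 10 probes with the highest wild-type mean (horizontal axis, in that order), 1 point per array, circles for wild type and triangles for knockout. The genotypes are separated for ASCRP4011502, ASCRP4005609 and ASCRP4004672, where knockouts 2 and 3 sit at 6.87 and 6.84, and they overlap for the other probes.

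Many of the 300 brightest probes stayed among the brightest in the knockout, but fewer did on each knockout array than on any wild-type array. On wild types 1 to 3, 267, 277 and 273 members were among that array's own 300 brightest probes. On knockouts 1 to 3 the counts were 252, 224 and 205. The wild-type counts are high in part by construction, since those arrays chose the members, while the knockout arrays did not. All 3 knockout lists held 196 of the members, 32 were on 2 lists, 29 on 1 and 43 on none. On all 6 lists were 166.

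Of the 43 members on no knockout list, the brightest in wild type were ASCRP4010587, ASCRP4013465, ASCRP4005270, ASCRP4004487 and ASCRP4009671. ASCRP4010587 was at 6.60, 4.46 and 6.09 in wild type and 3.44, 2.83 and 2.04 in knockout, so that wild type 2 lay between the other wild-type arrays and the knockouts. ASCRP4009671 was at 5.74, 5.26 and 4.61 in wild type and 3.89, 2.98 and 2.76 in knockout, without overlap. Conversely, 32 probes outside the 300 were on all 3 knockout lists, and their wild-type ranks were 301 to 433, just below the limit. Among them, ASCRP4008353 was at 4.14, 4.19 and 4.14 in wild type and 4.43, 4.62 and 4.54 in knockout. ASCRP4000032 had 4.01, 4.35 and 4.05 against 4.50, 4.49 and 4.92. The steps were small, with differences of 0.37 (SE 0.151) and 0.50 (SE 0.194) and limma adjusted p of 0.165 and 0.147. ASCRP4007448, ASCRP4010539 and ASCRP4005926 likewise had differences of 0.45, 0.57 and 0.35 and did not pass either. The probes in this paragraph were picked by their places on the wild-type and knockout lists. That choice favours lower knockout values in those leaving the lists and higher ones in those entering them. Their differences are a description and no evidence of a direction.

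The share of an array's summed circRNA signal held by its own 300 brightest probes was lower on every knockout array. This share is taken within each array, needs no scaling between arrays and uses a list made on that array alone. It was 58.2%, 56.3% and 58.5% on wild types 1 to 3 (57.7% ± 1.21, SD, n = 3) and 52.9%, 50.2% and 51.1% on knockouts 1 to 3 (51.4% ± 1.38, SD, n = 3). The difference of -6.23 percentage points gave p = 0.1 in an exact two-sided permutation test, which is the smallest p that 3 arrays against 3 allow. In the authors' processed values the difference was -1.36 percentage points. Knockout 1, scanned with the wild types, was at 52.9% and below all of them. The 10 brightest probes of an array held 13.6%, 15.1% and 18.5% in wild type and 14.7%, 14.9% and 17.9% in knockout, so the genotypes overlapped at the very top.

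**Figure D2:**
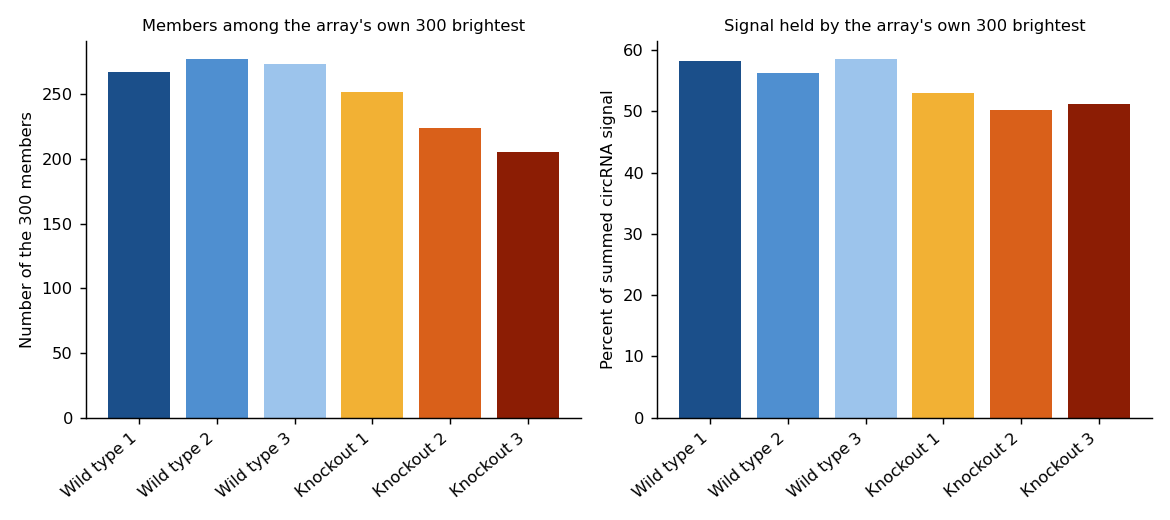
Left, the number of the 300 members that are among each array's own 300 brightest circRNA probes; right, the percent of each array's summed circRNA signal held by its own 300 brightest probes; 1 bar per array. Both are lower on each knockout array than on any wild-type array, from 252 to 205 members against 267 to 277, and from 50.2% to 52.9% against 56.3% to 58.5%. The wild-type counts on the left are high in part by construction, since those arrays chose the members.

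As a group, the brightest probes had lower knockout means relative to the array's 75th percentile, but no single member passed. Of 300 members 0 had a limma adjusted p under 0.05 over all 13336 circRNA probes tested, where 0.135% of all probes did, and the lowest adjusted p of a member was 0.0705. At an unadjusted p under 0.05 there were 159 members, 53.0% of the 300, against 27.1% of all probes tested. Of these 159, 150 were lower and 9 higher in the knockout. By a looser rule, an unadjusted p under 0.05 with at least a 1.5-fold difference, 133 members (44.3%) were lower, against 12% of all probes, and 5 (1.67%) were higher, against 7.35% of all probes.

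In all, 233 of the 300 members had a lower mean in knockout, against 46.6% of all probes tested. The median difference over the members was -0.51 on the log2 scale, with the middle 50% between -1.25 and -0.06, beside a median of 0.04 over all probes tested. A difference of 2-fold or more was found for 98 members as lower, against 6.02% of all probes, and for 0 as higher, against 1.29%. At least 4-fold lower were 35 members, against 1.6% of all probes. The genotypes did not overlap for 157 members, of which 147 (49.0%) were lower, against 17.5% of all probes, and 10 (3.33%) were higher, against 16.1% of all probes. For the remaining 143 they overlapped. These counts share the wild-type values with the rule, which favours probes that happened to read high in wild type, and they are no independent evidence of a direction.

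**Figure D3:**
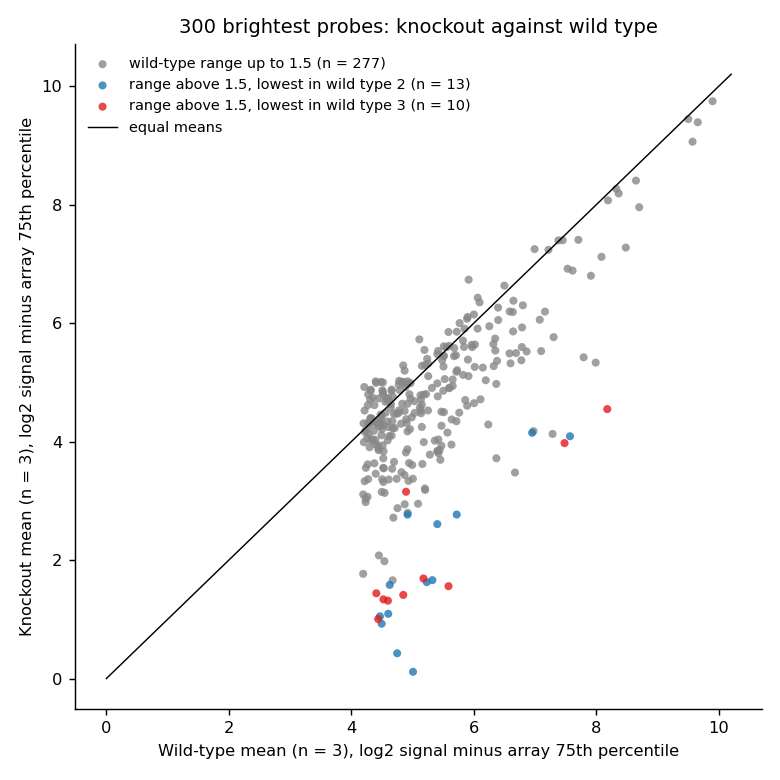
Knockout mean against wild-type mean of the 300 members (log2 signal minus the array's 75th percentile, n = 3 arrays each), 1 point per probe, with the line of equal means. Of the 300 points 233 lie below the line, and the coloured points are the 13 and 10 members whose wild-type arrays differed by more than 1.5 on the log2 scale.

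The choice of the 300 probes was varied in 2 ways. How far the choice by wild-type signal shaped the lower knockout values was not tested. When the 300 probes were chosen on 2 wild-type arrays and read on the remaining one, the median difference of that array from the other wild types was 0.10 for wild type 1, -0.07 for wild type 2 and -0.04 for wild type 3. On the same 3 choices, the median of knockout 1 was -0.33, -0.43 and -0.29, that of knockout 2 was -0.44, -0.65 and -0.52, and that of knockout 3 was -0.57, -0.77 and -0.62. By its median, the unused wild-type array thus lay closer to the choosing arrays than any knockout array did. It shared their scan, while knockouts 2 and 3 did not. For 124, 193 and 161 of the 300 probes wild types 1 to 3, when unused, were below the mean of the choosing arrays. The knockout arrays were below it for 222 to 243. When all 6 arrays chose the 300, 260 were shared with the members, the median difference was -0.25, and 94 were lower and 7 higher by the looser rule, against the 12% and 7.35% of all probes given above. When the 3 knockout arrays chose them, a choice that favours high knockout values, 231 were shared, the median was -0.11, and 67 were lower and 8 higher, against the same 12% and 7.35%.

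Scaling changed how many members were lower. After quantile normalization the median over the members was -0.069, beside 0.08 over all probes tested, and the looser rule gave 85 members lower (28.3%, against 10.6% of all probes) and 46 higher (15.3%, against 9.55%). In the authors' processed values, whose highest values are the same on all arrays, the median was -0.12, with 93 lower (against 7.26% of all probes) and 39 higher (against 7.06%). There 0 members passed a limma adjusted p of 0.05, against 0.06% of all probes. After normexp background correction with the 75th percentile it was -0.47, with 129 lower (against 7.42% of all probes) and 5 higher (against 3.02%). In that fit 58 members passed a limma adjusted p of 0.05, against 3.39% of all probes. After normexp with quantile normalization the median was -0.079, with 83 lower (against 5.99%) and 47 higher (against 4.46%). With no scaling the median over all probes was 0.31 and that over the members -0.24. The gap between these medians, -0.55, is by construction the same as with the 75th percentile, which shifts all probes of an array alike. Quantile normalization removes, by its construction, the difference in the share of signal held by each array's brightest probes. Under all 5 of these processings with scaling (75th percentile or quantile, each with and without normexp, and the authors' values), 81 members were lower by the looser rule, against 5.93% of all probes tested, and 4 higher, against 2.73%. No member lower by that rule with the 75th percentile became higher by it after quantile normalization, which would take 1.5-fold in each direction. Signs alone did change, with 233 members below 0 with the 75th percentile and 158 after quantile normalization. For 155 members the difference was below 0 under all 5, against 38.6% of all probes, and for 66 above 0, against 40.4%.

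**Figure D4:**
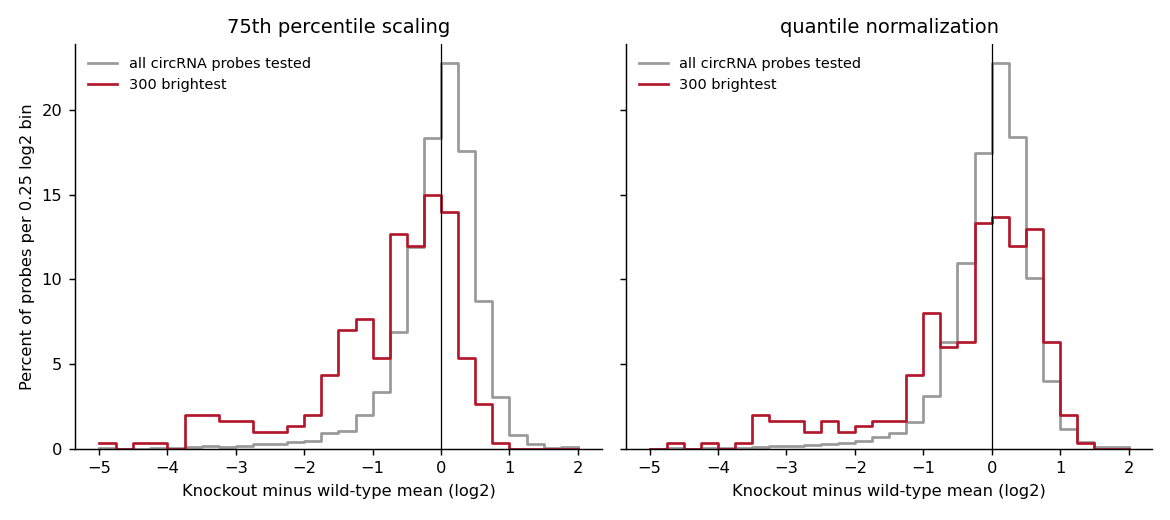
Percent of probes per 0.25 log2 bin (vertical axis) by knockout minus wild-type difference (horizontal axis), for the 300 members and for all 13336 probes tested, with scaling by the 75th percentile (left) and quantile normalization (right). The members' median is at -0.51 on the left and -0.069 on the right, and in both panels a larger percent of the members than of all probes tested lies at the lower end, with 44.3% and 28.3% lower by the looser rule.

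The scan overlaps with the genotype, and the difference was smaller on the knockout array that shared the wild types' scan. Relative to the wild-type mean, the median over the members was -0.34 on knockout 1, -0.56 on knockout 2 and -0.66 on knockout 3. Below all 3 wild-type arrays were 181 members on knockout 1, 199 on knockout 2 and 209 on knockout 3, against 32.8%, 35.8% and 34.7% of all probes tested. Above all 3 were 34, 46 and 45, against 29.6%, 39.3% and 41.9%. With the scan as a block the median was -0.34 and 42 members (14.0%) were lower by the looser rule, against 4.81% of all probes, with 4 higher against 2.88%. An unadjusted p under 0.05 was reached by 48 members in that fit, against 8.95% of all probes. Within scan 1 alone, 41 were lower (against 4.58%) and 3 higher (against 3.01%) by the looser rule, and 46 had an unadjusted p under 0.05 (against 9.13%). In both fits 0 members passed a limma adjusted p of 0.05. For 28 members knockout 1 lay within the wild-type range while knockouts 2 and 3 lay below it, and such a pattern was found for 6.27% of all probes tested. For 12 members knockouts 2 and 3 lay above the range instead, against 9.25% of all probes. Whether the second scan or the genotype lowered the signal on knockouts 2 and 3 cannot be told apart.

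The array also carries 14 control circRNA probes with 10 spots each, whose targets the files do not name. In the members' range of brightness were 9 of them, and 8 of these 9 were lower in knockout, with a median difference of -0.29 and a range of -0.58 to 0.35. Of the 5 dimmer ones, 2 were lower, with a median of 0.07. The control probe AS_circRNA_control3000005 was at 6.41, 6.36 and 6.32 in wild type and 6.18, 6.09 and 5.79 in knockout, without overlap. AS_circRNA_control3000009 was at 5.71, 5.66 and 5.85 in wild type and 5.45, 4.84 and 5.25 in knockout, also without overlap. For the 9 probes in the members' range the SD between spots of 1 array, averaged over the arrays, was 0.028 to 0.089 on the log2 scale. The highest came from AS_circRNA_control3000001, whose spots had an SD of 0.357 on wild type 1. The exception, AS_circRNA_control3000006, was at 3.98, 4.35 and 4.29 in wild type and 4.37, 4.59 and 4.71 in knockout, without overlap in the other direction. These 4 were named after their values had been seen. The 50 mRNA probes, which read linear RNA left after digestion, had a median difference of -0.61, and 44 of them were lower in knockout. Of the 50, 32 had at least 5 of 10 spots well above background on all 6 arrays. On knockout 1 the median of the 50 was -0.34. The probes named as negatives all had a lower knockout mean as well, with differences from -0.90 to -0.02. On knockout 1, however, most of them lay above their wild-type mean. MM9NEGATIVE001 had a wild-type mean of -7.23 and was at -6.91 on knockout 1, and at -8.46 and -8.03 on knockouts 2 and 3 of scan 2. Others were lower on knockout 1 too, such as MM9NEGATIVE015 at -4.41 against -4.01. How far the dim mRNA probes follow the level of the negatives was not tested. The part of these differences in the members' lower knockout signal was not tested.

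The members' differences were not even over the ranking. Probes ranked 1 to 10 in wild type had a median difference of -0.21, those ranked 11 to 30 of -1.06, those ranked 31 to 100 of -0.68 and those ranked 101 to 300 of -0.42. The following 700 probes, ranked 301 to 1000, had -0.09. Ranked on all 6 arrays, the same bands had -0.21, -0.56, -0.42, -0.18 and 0.00. After quantile normalization the bands of the wild-type ranking had 0.03, -0.36, -0.11, -0.02 and 0.13, so the direction of the first and the last band turned with the scaling. At ranks 11 to 30, ASCRP4009404, ASCRP4002727 and ASCRP4011542 had wild-type arrays that differed by more than 1.5 on the log2 scale, by 1.60, 1.54 and 1.71. Whether this bears on the median of the band was not tested.

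Replicate mice of 1 genotype differed little for most members and strongly for a few. The median SD between wild-type arrays was 0.24 for the members and 0.19 over all probes tested, and that between knockout arrays 0.31 and 0.28. The knockout arrays span both scans, so their SD holds the scan as well as the mice. The highest wild-type array exceeded the lowest by a median of 0.46 on the log2 scale, or 1.37-fold, and the middle 50% of members had a range of 0.26 to 0.78. For 45 members all 6 arrays lay within 0.5 of each other, for 139 within 1, and for 78 they spanned more than 2. Across the members, Pearson's r was 0.84 to 0.87 between wild-type arrays, 0.69 to 0.91 between knockout 1 and the wild-type arrays, and 0.95 between knockouts 2 and 3. Between wild types and knockouts 2 and 3 it was 0.31 to 0.70, lowest for wild type 1 with knockout 3. These correlations run over 300 probes, which are not independent replicates, and each pair shares the probes' hybridisation.

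The steadiest members over the 6 arrays were ASCRP4010146, ASCRP4007072, ASCRP4000966, ASCRP4010565 and ASCRP4000164. ASCRP4010146 was at 7.43, 7.34 and 7.36 in wild type and 7.41, 7.45 and 7.33 in knockout, an SD of 0.05 over all arrays. ASCRP4007072 was at 7.26, 7.21 and 7.18 in wild type and 7.29, 7.27 and 7.15 in knockout. Both genotypes filled the same narrow range for these probes. The other three had differences between -0.05 and 0.08 (SE 0.156 to 0.160). This steadiness holds relative to the 75th percentile and not after quantile normalization, where the differences of these 5 probes, in the order given, were 0.74, 0.73, 0.58, 0.29 and 0.44.

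At the other end, 23 members had wild-type arrays that differed by more than 1.5 on the log2 scale, 7.67% of the members against 2.86% of all probes tested. They fell into 2 sets by their lowest wild-type array, with 13 lowest in wild type 2, 10 lowest in wild type 3 and 0 lowest in wild type 1. Wild type 1 was the highest wild-type array for 21 of the 23. The sets were formed after their values had been seen and are described without a test. Their spots did not lie together on the array, with the first set spread over rows 16 to 187 and the second over rows 25 to 181 of 192.

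The 13 members lowest in wild type 2 were lower on each knockout array than on any wild-type array. Their median was 6.27, 3.64 and 5.69 on wild types 1 to 3 and 2.38, 1.81 and 0.71 on knockouts 1 to 3. ASCRP4004376 had the largest difference of all members, and was at 6.51, 2.72 and 5.79 in wild type and 1.40, 0.16 and -1.22 in knockout. Its wild-type arrays differed by 13.8-fold, its knockout mean was 29.7-fold lower, and the difference was -4.89 (SE 1.01, limma adjusted p = 0.0705). ASCRP4013464 was at 6.08, 2.81 and 5.35 in wild type and 0.71, 1.27 and -0.70 in knockout (-4.32, SE 0.844). For both, wild types 1 and 3 were high, wild type 2 was well below them, as the choice of the set requires, and every knockout was lower still.

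ASCRP4005270 had 6.46, 3.77 and 5.74 against 2.65, 1.63 and 0.71, ASCRP4004487 had 6.27, 3.73 and 5.69 against 2.38, 1.85 and 0.65, and ASCRP4000591 had 5.41, 2.89 and 5.18 against 2.21, 0.98 and -0.41. Their differences of -3.66 (SE 0.721), -3.60 (SE 0.682) and -3.57 (SE 0.809) had limma adjusted p of 0.0705, 0.0705 and 0.0707. Knockout 2 was below knockout 1 for 11 of the 13, with ASCRP4013464 and ASCRP4013465 the exceptions. The brightest of the 13, ASCRP4002727, had 8.05, 6.56 and 8.10 in wild type and 5.49, 4.46 and 2.32 in knockout. ASCRP4014115 was at 7.53, 5.94 and 7.38 in wild type and 4.98, 3.94 and 3.52 in knockout. For all 13 the genotypes did not overlap, against 17.5% of all probes tested that were lower without overlap. Knockout 1 of scan 1 lay below every wild-type array for all 13, against 32.8% of all probes. The choice of members favours probes that read high in wild type, so these counts are no independent evidence of a direction. The differences of the 13 ran from -4.89 to -2.15. After quantile normalization the median was -3.17 and the smallest fall 1.83, so the direction was the same with both scalings.

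The 10 members lowest in wild type 3 had knockout 1 apart from knockouts 2 and 3. Their median was 5.98, 5.45 and 3.66 on wild types 1 to 3, 3.77 on knockout 1, 0.88 on knockout 2 and 0.05 on knockout 3. Knockout 1 thus lay near wild type 3. Of the 10, 1 had genotypes that did not overlap, against 17.5% of all probes tested that were lower without overlap. ASCRP4009404, ranked 11 in wild type, was at 8.81, 8.51 and 7.22 in wild type, at 7.23 on knockout 1, and at 4.37 and 2.04 in scan 2. ASCRP4011542 ran parallel to it at 8.11, 7.92, 6.40, 6.55, 3.65 and 1.72 on the same arrays. ASCRP4010050 was at 6.44, 6.12 and 4.20 in wild type and 4.68, 0.72 and -0.72 in knockout.

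ASCRP4013451 had the largest range between wild-type mice of all members. It was at 6.09, 5.05 and 2.18 in wild type, a range of 15.1-fold, and at 2.69, 0.41 and -0.10 in knockout. The differences of the 10 ran from -4.03 to -1.74, with a median of -3.43. ASCRP4007459, the probe without overlap, had the smallest, at 5.85, 4.97 and 3.87 in wild type and 3.69, 3.71 and 2.06 in knockout. After quantile normalization the median of the 10 was -3.10. Relative to the wild-type mean, the median of knockout 1 was -0.94 for these 10 and -2.56 for the 13 members lowest in wild type 2. Wild-type mice themselves differed by up to 3.79 in the first set and 3.91 in the second on the log2 scale. Over all probes tested, 186 of those with a wild-type range above 1.5 were lowest in wild type 2, 113 in wild type 3 and 82 in wild type 1. Whether the probes of a set share a host gene or sequence was not analysed here.

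**Figure D5:**
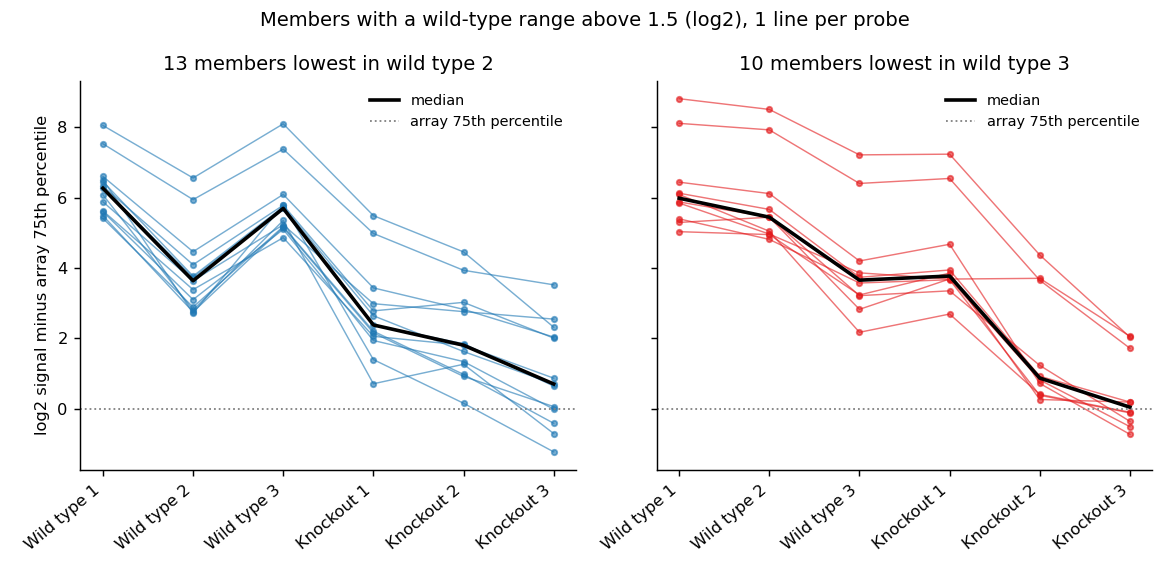
Log2 signal minus the array's 75th percentile (vertical axis) on each array (horizontal axis) of the 13 members lowest in wild type 2 (left) and the 10 lowest in wild type 3 (right), 1 thin line per probe; lines join the arrays only to follow a probe. The thick line is the median, which is 3.64 on wild type 2 and 2.38 on knockout 1 on the left, and 3.66 on wild type 3 and 3.77 on knockout 1 on the right.

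Without these 23, the other 277 members had a median difference of -0.42, with 210 lower at any p (against 46.6% of all probes), and 110 lower (against 12%) and 5 higher (against 7.35%) by the looser rule. Their medians were 5.25, 5.02 and 5.06 on wild types 1 to 3 and 4.81, 4.67 and 4.60 on knockouts 1 to 3, with each knockout below each wild type. After quantile normalization their median difference was 0.04, so no direction is given for these 277 as a group.

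With scaling by the 75th percentile, 67 members had a higher mean in knockout, each by less than 2-fold. After quantile normalization 142 were higher and in the authors' values 131, so the number and size of these differences depend on the scaling. ASCRP4014146, the largest, was at 6.30, 5.85 and 5.60 in wild type and 6.92, 6.80 and 6.48 in knockout, 1.76-fold higher (log2 difference 0.82, SE 0.228, limma adjusted p = 0.0847). Every knockout array lay above every wild-type array, including knockout 1 of scan 1, which was the highest of all. ASCRP4009349 was at 5.42, 5.20 and 4.71 in wild type and 5.71, 5.96 and 5.49 in knockout, and ASCRP4010223 at 4.24, 4.62 and 4.33 against 4.90, 4.79 and 5.36. Their differences of 0.61 (SE 0.232) and 0.62 (SE 0.210) had limma adjusted p of 0.143 and 0.116.

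ASCRP4003894 had 4.79, 4.49 and 3.93 against 5.06, 5.03 and 4.88, and ASCRP4013135 had 4.44, 4.50 and 3.99 against 5.00, 4.72 and 4.90. All 5 were higher on each knockout array than on any wild-type array, which was a condition for naming them. With the scan as a block the differences were 1.00 for ASCRP4014146, 0.61 for ASCRP4009349, 0.50 for ASCRP4010223, 0.66 for ASCRP4003894 and 0.69 for ASCRP4013135. After quantile normalization they were larger, between 0.99 and 1.40, and in the authors' processed values between 0.86 and 1.32.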

How the data were processed

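Per the file headers, the deposited scanner output gives an intensity per spot from Agilent Feature Extraction 11.0.1.1 (protocol GE1_1100_Jul11), with background and spatial detrending done and arrays not scaled to each other. A further deposited table has log2 values processed by the authors for 13817 probes, the 5 highest equal on all arrays to within 1e-06. No source used here states its steps; limma and Feature Extraction are listed in the submitters' processing notes. Of 14236 circRNA probes, 75 with a non-uniformity outlier flag on any array were left out. The log2 processed signal minus the array's 75th percentile over the remaining 14161 was fitted for 13336 probes well above background on at least 3 of 6 arrays, with lmFit and eBayes (limma 3.58.1, R 4.3.3), with genotype alone in the model and two-sided p-values adjusted by Benjamini and Hochberg's method. Normexp (offset 50) used median spot and background signals, since the files hold no mean spot signal. P-values of this fit measure the difference against the spread between arrays of a genotype, 3 mice each, whose number limits the precision. For the knockouts this spread holds the scan as well as the mice. Named probes were the 10 brightest, the largest non-overlapping changes in each direction (none passed the adjusted threshold), the steadiest and most variable, those at the limit of 300 and those entering or leaving the knockout lists. Others named, in the 2 variable sets, were chosen after their values were seen. The members, lists and tests were chosen with earlier results of these data known. The fit was tested on simulated data. The targeted gene was not analysed here. Figures were drawn with matplotlib 3.10.9 (Python 3.11.15).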

Additional observations from a re-analysis of the deposited data

Results flagged for a closer look

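A signal appeared in probes named as negatives, which the limma fit does not include. Of 15 negative probes on the array, 4 had at least 5 of their 10 spots well above background on all 6 arrays.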

How the results depend on the processing

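The number of members passing an adjusted p of 0.05 (limma) was 0 with quantile normalization, the array median, normexp with quantile, the authors' processed values, the scan block, within scan 1, eBayes with trend and robust, and both other filters on dim probes. It was 45 with no scaling (3.49% of all probes tested passed), 58 after normexp with the 75th percentile (3.39%), 87 with array weights (9.43%) and 1 among 600 members (0.135%), and leaving out each array in turn gave 0 to 106. The 106 came without knockout 1 (15.0% of all probes), where genotype and scan are the same split, and 17 passed without wild type 2 (2.65%). With the replicate number as a block 71 passed (3.76%). Whether the numbers pair the mice cannot be decided here. Deviations of same-numbered arrays from their genotype's mean correlated at 0.19, -0.04 and 0.21, and those of wild type 1 and knockout 2 at 0.21. Deviations from a mean of 3 arrays depend on each other, and those of the knockouts also hold the scan. The looser count of 138 was 46 with the scan block, 44 within scan 1, 75 for members chosen on the knockout arrays, and 109 to 149 without 1 array. The median difference of -0.51 was -0.069 with quantile normalization, -0.24 with no scaling, -0.079 after normexp with quantile, -0.12 in the authors' values, -0.34 with the scan block and within scan 1, -0.25 and -0.11 for members chosen on all 6 or on the knockout arrays, -0.69 for 100 members and -0.32 for 600, and it ran from -0.60 to -0.43 without 1 array. Causes were not tested, except that the scan block and scan 1 rest on knockout 1 alone. Members chosen on normexp, quantile, unscaled or authors' values shared 293 to 300 with the 300. The difference in the 300-probe share of signal was -5.78 percentage points with median spot signals, -5.92 after normexp and -1.36 in the authors' values. In the authors' values wild type 3 was at 52.42% and knockout 1 at 52.35%. The share was not taken after quantile normalization, which removes this difference by construction. No named probe with a non-overlapping change reversed. All members were well above background on all arrays; with 3 arrays a genotype and scan overlapping genotype, precision is limited.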
